A study of Oryza sativa with 20 samples.

Results

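A set of 119 gene IDs stood lower in heat-shocked than in control rice shoots at each of 4 successive samplings, from the end of a 10 min bath to 2 h after its start. For each gene ID the row with the highest mean over the 10 groups was used, in FPKM, a unit that corrects fragment numbers for transcript length and library size. The members were chosen by these measured levels. The ratio of heated to control shoots was taken as (heated + 1) / (control + 1), and an ID entered the set when this ratio was at most 0.6 at every sampling from 10 min to 2 h. Its control groups, 5 in number, also had to average at least 5 FPKM. Of the 37248 IDs listed, 14785 reached that level, and 119 of these, or 0.805%, met all 4 ratios. OS06G0149100 and OS06G0149166 carried identical values, so the set holds 118 distinct records. Among the 14785 IDs, 2172, or 14.7%, carried the values of another ID. Shares over all IDs below count each of them.

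The shoots came from wild-type rice (Oryza sativa) plants 2 weeks old. Pots were turned over so that the shoots hung for 10 min in water at 42 °C (heated) or 22 °C (control). They were then sampled at once, at 10 min, or after recovery at 30 °C, at 20 min, 1 h, 2 h and 10 h from the start. Each of the 10 groups held 2 libraries of 3 shoots each. All groups shared the inversion and the immersion, and those sampled after 10 min also shared the recovery temperature. Heat in the heated arm and the cooler 22 °C bath of the controls thus cannot be told apart as the origin of a difference. The labels give no cultivar and no time of day.

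Sudden heat makes plant cells turn on heat stress transcription factors and chaperone genes within minutes, while many other transcripts become scarcer. The amount of a transcript depends on how fast it is made and how fast it is broken down. Transcripts that are quickly broken down follow a stop in synthesis soonest, and long-lived ones trail behind. RNA-seq of whole shoots gives the level alone, as a share of all RNA, and fewer cells of a type cannot be told apart from less RNA per cell.

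Each group has a single value in the deposited table, with the libraries already combined, so no SD stands beside a level and depth per library is unknown. A call below means a q-value under 0.05 in the authors' deposited table. These q-values have 2 decimals, so a printed 0.05 was counted as no call even if it had been rounded up to that value. All rows of a group summed to between 698681 FPKM (controls, 2 h) and 1233040 FPKM (heated, 1 h). No source used here pairs the IDs with gene names or products, so the members are given by ID, with no function. A planned check of the shoot label against marker genes was not made.

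The 4 ratios narrowed the set stepwise. A ratio of at most 0.6 was met at 10 min by 678 of the 14785 IDs (4.59%). It was met at 20 min by 11.5%, at 1 h by 16.7% and at 2 h by 13%. Both of the first samplings passed 442 IDs, and those through 1 h passed 250. The members nearest the limit were OS06G0228500, OS11G0489250 and OS04G0330200, whose largest ratios were 0.5998, 0.599 and 0.598, each at 10 min. Just outside lay OS08G0509200 with 0.6003 at 20 min, and OS06G0730950 and OS07G0104100 with 0.601 each at 2 h. The lowest control mean of a member was 5.07 FPKM, and the highest of a gene kept out by that mean alone was 4.96 FPKM. With no filter on the control mean 144 IDs met the 4 ratios. In 66 members at least 1 of the 4 ratios lay above 0.5, and in 1 member, OS02G0115801, all 4 lay at or under 0.25. That member had no call at any of these times, with q-values of 0.57, 0.17, 0.63 and 0.67 in the authors' deposited table. Its controls of 10 min to 2 h ran from 33.9 to 177 FPKM.

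Because the rule used the levels from 10 min to 2 h, these are described here and nothing is read from their tests. The median member stood at 26.7 FPKM in the 10 min controls and at 10.5 FPKM in the heated shoots of that time. At 20 min the medians were 25.6 and 8.80 FPKM, at 1 h 23.7 and 5.95 FPKM, and at 2 h 24.4 and 8.54 FPKM. At 10 h they were 22.6 FPKM in controls and 23.1 FPKM in heated shoots. The control median stayed between 22.6 and 26.7 FPKM over the 5 times, and the heated median was lowest at 1 h.

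**Figure D1:**
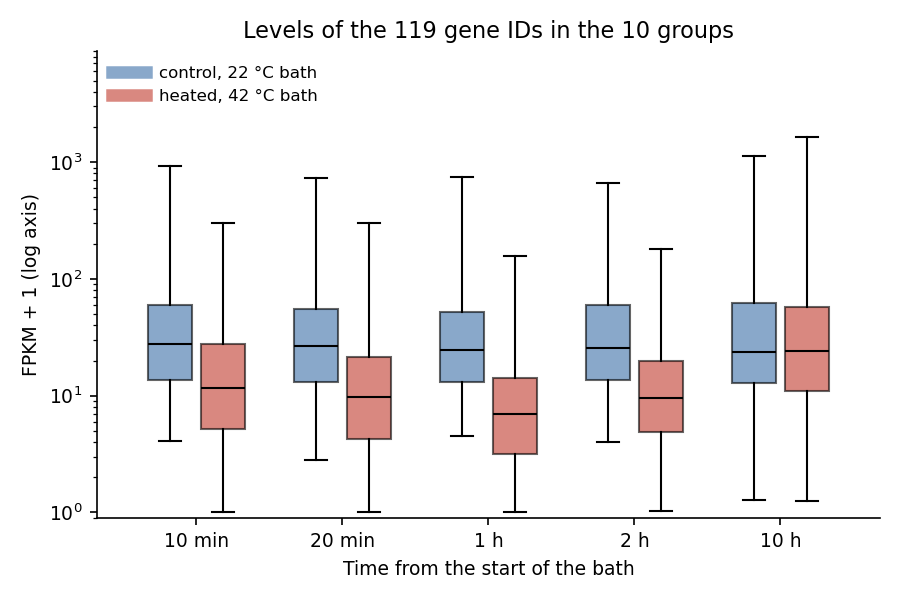
Levels of the 119 gene IDs in the 10 groups, as FPKM + 1 on a log axis. Boxes span the quartiles with the median as a line, and whiskers reach the lowest and highest member. From 10 min to 2 h the heated medians of 10.5, 8.80, 5.95 and 8.54 FPKM lie below the control medians while the boxes overlap, and at 10 h the medians are 23.1 and 22.6 FPKM.

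As a log2 ratio, heated over control on (FPKM + 1), the median member stood at -1.16 when the bath ended and at -1.35 at 20 min. It reached -1.97 at 1 h and -1.39 at 2 h. Over all 14785 IDs the medians at these times were -0.03, -0.07, -0.13 and -0.04. The median ratio on (FPKM + 1) was thus 44.7% when the bath ended and 25.5% at 1 h. The lowest ratio was that of 1 h in 62 members, of 2 h in 27, of 20 min in 22 and of 10 min in 8. A ratio at or under 0.25 was met by 10 members when the bath ended, by 24 at 20 min, by 59 at 1 h and by 26 at 2 h. Few members thus had their lowest ratio at the end of the bath, but these ratios chose the set. Over all 14785 IDs the log2 ratios also lay closer together then, with quartiles of -0.22 and 0.13. At 1 h those quartiles were -0.53 and 0.32, so the timing is not read as a trait of the members.

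**Figure D2:**
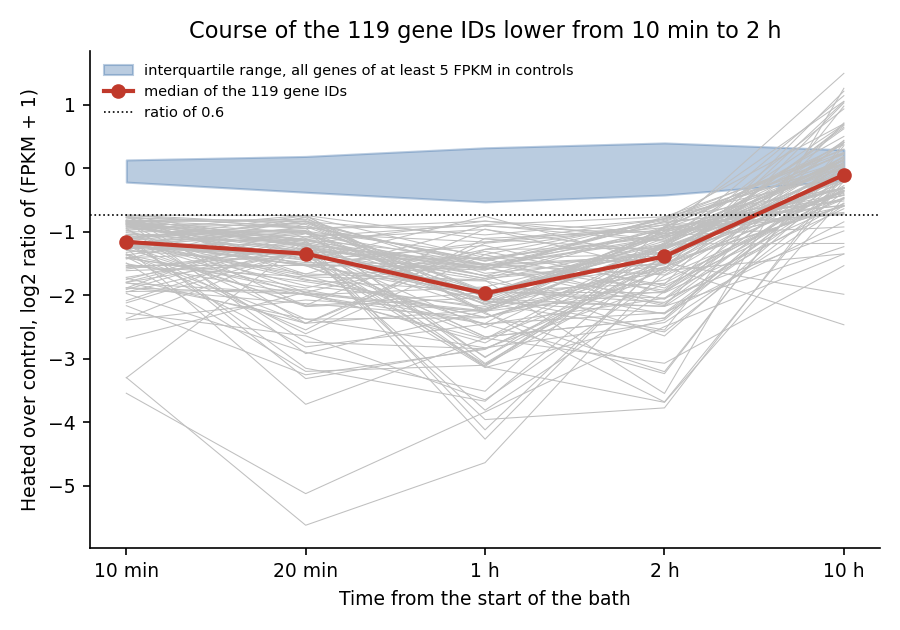
Log2 of heated over control, from FPKM + 1, at the 5 times for each of the 119 gene IDs (grey) with their median (red), beside the interquartile range of all 14785 IDs of at least 5 FPKM in controls (blue) and the limit of 0.6 (dotted). The median runs from -1.16 at 10 min to -1.97 at 1 h and is back at -0.11 at 10 h.

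Within the heated shoots alone, 84 of the 119 IDs were lower at 20 min than at 10 min, and 103 were lower at 1 h than at 10 min, 55 of them by at least 2-fold on (FPKM + 1). From 1 h to 2 h the levels parted. Here 80 IDs were higher at the later time, 32 of them by at least 2-fold, and 39 were lower. Between 2 h and 10 h 111 IDs were higher at 10 h, 71 by at least 2-fold. These comparisons between heated groups carry no test. The rule asked for low heated values up to 2 h, and the same counts over all IDs were not worked out. They are therefore not read as a course particular to the members.

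The share of the members in all expression is given as a description, since the rule set both their control mean and their ratios up to 2 h. Together the 119 IDs took 1.09% of the FPKM summed over the used rows in the 10 min controls and 0.399% in the shoots just heated. In heated shoots the share was 0.317% at 20 min, 0.141% at 1 h and 0.308% at 2 h, against 0.959%, 0.938% and 1.07% in controls. The share at 1 h also reflects a larger total after heat, with all rows at 1233040 FPKM against 861006 FPKM in controls. The summed level of the members at that time was 1695 against 7889 FPKM. At 10 h the share was 1.07% after heat and 1.12% in controls, although the summed level itself was higher after heat, at 8889 against 7818 FPKM. OS12G0291066 alone gave 1658 FPKM of the heated sum and 715 FPKM of the control sum at 10 h. The direction at 10 h thus depends on the scale, and none is read from it.

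The most abundant member, OS02G0616100, stood at 921, 729, 421, 667 and 1130 FPKM in the controls from 10 min to 10 h. In the heated shoots it stood at 238, 298, 47.3, 50.9 and 819 FPKM. Its 4 heated values up to 2 h were all below every control value, and the lowest ratio came at 2 h, with a log2 ratio of -3.69. Of the 6 members with the highest control means, 276 to 774 FPKM, 5 were called lower at all 4 times in the authors' deposited table. OS08G0262500 was also far below its controls and stood at 33.1, 25.6, 39.2, 32.2 and 33.1 FPKM in controls. In heated shoots it stood at 11.9, 9.67, 1.59, 1.43 and 31.0 FPKM. Its heated values up to 2 h lay below every control value, and at 10 h the ratio was 0.937.

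At 10 min 81 members were called lower in the authors' deposited table, beside 2.79% of all 14785 IDs. At 20 min the authors' deposited table called 85 members lower, against 7.55% of all IDs, and at 1 h 90, against 10.7%. At 2 h it was 89 members in the authors' deposited table, against 8.81% of all IDs. All 4 calls were held by 66 members and by 0.494% of all IDs in the authors' deposited table. A further 20 members had 3 calls, 7 had 2, 7 had 1 and 19 had none in the authors' deposited table. None was called higher at these times in the authors' deposited table, where 1.31%, 3.12%, 11.5% and 12.3% of all IDs were. These counts follow from the rule and are given as a description. The 4 heated values all lay below the 4 control values of 10 min to 2 h in 98 members, as in 7.51% of all IDs.

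The contrast at 10 h was not used by the rule, apart from the 10 h control value entering the control mean. By then most members were back near the controls. The median log2 ratio was -0.11, with quartiles of -0.42 and 0.19, against a median of 0.04 over all 14785 IDs with quartiles of -0.20 and 0.29. A ratio within 1.5-fold of the control was found in 85 members, or 71.4%, and in 83.5% of all IDs. The ratio was below 1 in 70 members, or 58.8%, and in 45.1% of all IDs. No test of the set against other genes was made.

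Single genes at 10 h were judged by the q-values of the authors. At 10 h 8 members were called lower in the authors' deposited table, which is 6.72% of the set, against 2.16% of all IDs. Calls in the other direction were held by 3 members, or 2.52%, in the authors' deposited table and by 3.49% of all IDs. The ratio itself was at most 0.6 in 10 members, against 3.87% of all IDs, and at least the inverse of that limit in 9, against 5.27%.

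**Figure D3:**
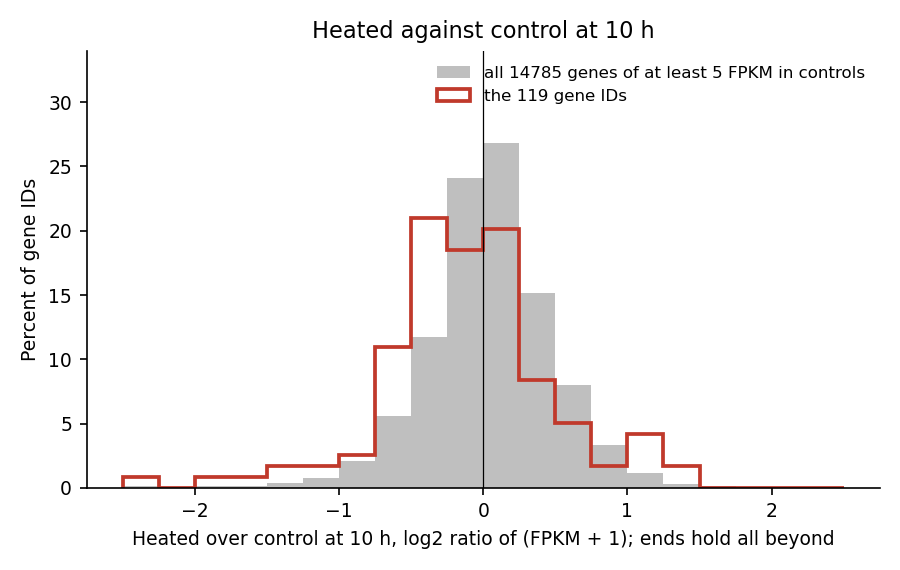
Distribution at 10 h of log2 of heated over control, from FPKM + 1, as a percent of gene IDs. The 119 IDs (red line) have their median at -0.11 and all 14785 IDs of at least 5 FPKM in controls (grey bars) at 0.04.

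OS05G0409500 had the lowest ratio at 10 h. It stood at 23.6, 33.8, 22.3, 24.4 and 22.6 FPKM in the controls of the 5 times, and at 10.1, 8.66, 4.16, 7.66 and 3.27 FPKM in heated shoots. Every heated value was below every control value, and the last was the lowest of all. Its log2 ratios were -1.15, -1.85, -2.18, -1.55 and -2.47 in the order of time, and it was called lower at all 5, with a q of 0.0 every time in the authors' deposited table.

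OS08G0231400 came next. Its controls stood at 7.27, 5.64, 9.52, 9.71 and 14.6 FPKM and its heated shoots at 1.75, 1.8, 2.16, 2.80 and 2.94 FPKM. The heated level stayed between 1.75 and 2.94 FPKM while the controls were highest at 10 h, where the log2 ratio was -1.99 (q = 0.0 in the authors' deposited table). These were the 2 members of the 8 whose ratio at 10 h lay below that of every earlier time.

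The other 6 calls at 10 h were those of OS04G0554800, OS10G0144700, OS03G0273200, OS06G0278000, OS06G0119100 and OS01G0214600, named after their values were seen. Their log2 ratios ran from -1.35 in the first to -0.85 in the last, which had q = 0.02 in the authors' deposited table. OS03G0273200 had a log2 ratio of -1.19 when the bath ended and again at 2 h and 10 h, with lower values of -1.66 and -1.76 in between. Among the 8, 7 had also been called lower at all 4 earlier times in the authors' deposited table. OS10G0144700 was the exception, with q = 0.06 at 10 min in the authors' deposited table, where it stood at 5.32 FPKM in controls and 2.51 FPKM after heat.

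The 3 members called higher at 10 h in the authors' deposited table were OS02G0240300, OS10G0508700 and OS12G0583300, and each had been called lower at all 4 earlier times there. OS02G0240300 stood at 15.4, 40.9, 20.4, 60.9 and 69.6 FPKM in controls and at 6.04, 8.25, 4.2, 9.58 and 138 FPKM in heated shoots. Its 10 h heated value was the highest of the 10 groups, and its other heated values were the lowest. OS10G0508700 stood at 12.3, 48.3, 67.6, 61.8 and 12.2 FPKM in controls and at 5.91, 6.40, 8.56, 19.98 and 26.3 FPKM in heated shoots. The controls were highest at 1 h and low again at 10 h, while the heated shoots were highest at 10 h. OS12G0583300 stood at 12.8, 12.8, 7.81, 3.79 and 10.0 FPKM in controls and at 6.59, 2.07, 1.27, 1.00 and 20.01 FPKM in heated shoots. Their log2 ratios at 10 h were 0.98, 1.05 and 0.93, and q was 0.0 for all of them in the authors' deposited table.

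The 2 largest ratios at 10 h carried no call. OS12G0274750 stood at 78.3 FPKM in controls and 222 FPKM in heated shoots (log2 ratio 1.49, q = 0.76 in the authors' deposited table). At the 4 earlier times it had stood at 55.8, 21.9, 50.0 and 53.8 FPKM in controls and at 14.4, 11.6, 16.9 and 25.8 FPKM after heat, with no q under 0.59 in the authors' deposited table. OS01G0922700 stood at 6.81, 36.1, 29.1, 102 and 9.36 FPKM in controls and at 3.16, 13.8, 7.85, 7.80 and 23.8 FPKM in heated shoots. It was called lower only at 2 h (q = 0.03 in the authors' deposited table), the time of its control peak.

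As that gene shows, a low ratio could also come with a high control. Between the control groups of 10 min to 2 h the highest value was a median of 1.58 times the lowest in the members, and a median of 1.40 times over all IDs. In 42 members, or 35.3%, the controls differed by at least 2-fold, as in 17.3% of all IDs, and in 13 by at least 4-fold. These control values entered the ratios of the rule, so the wider range is not read as a trait of the members. OS12G0628600 had the widest range, 15.0-fold, with controls at 5.91, 3.25, 10.7 and 48.8 FPKM and heated shoots at 2.5, 1.54, 1.38 and 4.40 FPKM. The highest of the 4 control values was that of 10 min in 49 members, of 1 h in 25, of 20 min in 24 and of 2 h in 21. The same count over all IDs was not worked out. Set against the 10 min control alone, the heated level was at most 0.6 of it at all 4 times in 104 of the 119 members. In the remaining members at least 1 heated value was above that share of the 10 min control.

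Members differed in how far the q-values followed the size of the ratio. Most IDs in the table end in 00. Other endings were carried by 24 members, or 20.2%, and by 9.71% of all IDs. Of these 24, 15 had no call at any of the 4 times and 2 had all 4 in the authors' deposited table. Of the 95 members ending in 00, 4 had no call and 64 had all 4 in the authors' deposited table. The identical record of OS06G0149166 and OS06G0149100 stands on both sides, the first ID among the 2 and the second among the 64. The ratios of the 24 were no nearer to 1. From 10 min to 2 h the medians of their log2 ratios were -1.22, -1.84, -2.45 and -1.52, against -1.16, -1.31, -1.96 and -1.33 in the 95. The median control mean was 13.7 FPKM in the 24 and 32.2 FPKM in the 95.

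Such a gap in calls was also found over all 14785 IDs. At 1 h, 334 IDs with other endings and 2139 ending in 00 had a ratio of at most 0.6, and the authors' deposited table called 29.3% and 66.3% of them lower. At 10 min the shares called in the authors' deposited table were 21.8% of 110 and 62.5% of 568. The 19 members with no call had a median log2 ratio over the 4 times of -2.25, and the 66 with all 4 calls one of -1.54. Their control means ran from 6.38 to 561 FPKM with a median of 12.9 FPKM, against a median of 38.8 FPKM in the 66. Of the 8 members with the lowest mean log2 ratios, -3.79 to -2.48, 4 had no call and 4 had at least 3 in the authors' deposited table.

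The deepest member of all was of the first kind. OS12G0291066 stood at 618, 454, 739, 279 and 715 FPKM in controls and at 62.1, 8.24, 28.8, 91.4 and 1658 FPKM in heated shoots. Up to 2 h its heated values were all far below its controls, with log2 ratios of -3.29, -5.62, -4.64 and -1.60. The q-values in the authors' deposited table were 0.47, 0.38, 0.24 and 0.76. OS12G0291733, 5 IDs further on in the table, was also low after heat up to 2 h and higher than its control at 10 h, with 129, 34.04, 151, 123 and 194 FPKM in controls and 32.2, 3.70, 12.3, 64.8 and 403 FPKM in heated shoots. It too had no call in the authors' deposited table. Whether reads of overlapping or near-identical genes were split among such rows was not tested, so both are uncertain.

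**Figure D4:**
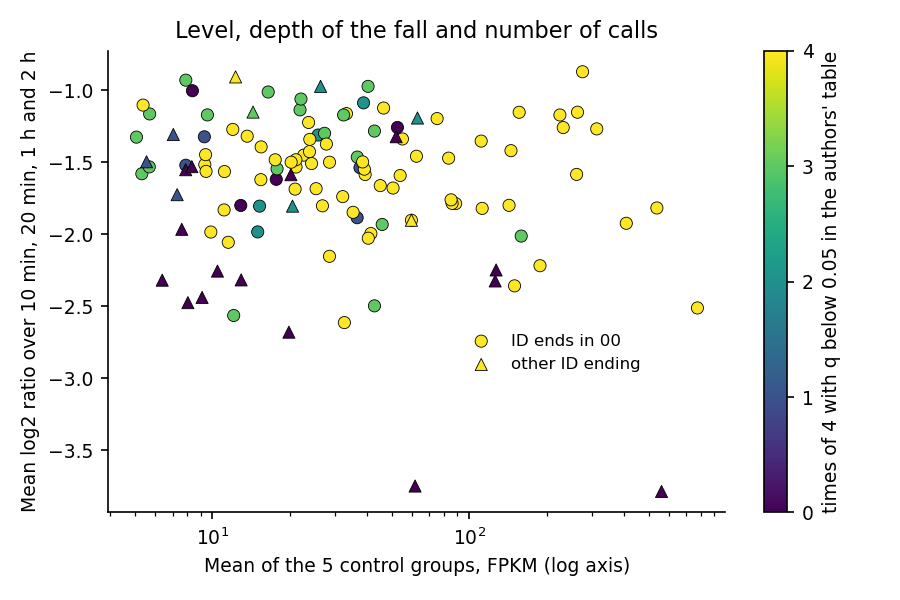
Mean of the 5 control groups (FPKM, log axis) against the mean log2 ratio of heated to control over 10 min, 20 min, 1 h and 2 h for each of the 119 gene IDs. Colour gives the number of these 4 times with q below 0.05 in the authors' deposited table, and triangles are IDs that do not end in 00. Of the 24 triangles 15 have no call, and they include the lowest point at a log2 ratio of -3.79.

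The chromosome is part of each ID. Chromosome 6 held 20 members, or 16.8% of the set, where it held 8.17% of all 14785 IDs. Chromosome 12 held 10, or 8.40% against 4.75%. Chromosome 1 held 18 (15.1% against 14.4%), chromosome 3 held 12 (10.1% against 14.3%) and chromosome 9 held 1 (0.840% against 5.50%). In the order of IDs in the table, 21 members had another member within 10 IDs. OS06G0149100 and OS06G0149166, which carried identical values, are among them. How many IDs of other sets of this size lie so close was not worked out, so no clustering is read from the count. On chromosome 6 such a run held 5 members among 11 successive IDs from OS06G0118900 to OS06G0120200. Of these 11 IDs 6 reached 5 FPKM in controls, and 5 of the 6 were members. The run was picked after the members were known and has a member at each end, so this share is a description only.

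The highest of the run, OS06G0119600, stood at 40.5, 29.2, 12.4, 33.5 and 27.4 FPKM in controls and at 5.49, 6.80, 0.99, 13.7 and 20.2 FPKM in heated shoots. OS06G0119700, the next ID, stood at 19.7, 14.8, 8.41, 17.9 and 14.3 FPKM in controls and at 4.6, 2.60, 0.84, 5.41 and 10.9 FPKM in heated shoots. Both had a dip at 1 h in the controls as well as in the heated shoots. OS06G0120200 stood at 16.5, 12.98, 6.98, 6.36 and 12.7 FPKM in controls and at 5.01, 3.27, 1.33, 0.50 and 9.99 FPKM in heated shoots, with its lowest values at 2 h. In the other 2 members, OS06G0118900 and OS06G0119100, the control level moved less, between 11.8 and 21.5 FPKM and between 9.01 and 15.1 FPKM. The heated level was lowest at 1 h in both, at 2.95 and 1.56 FPKM. That all 5 were low after heat up to 2 h follows from the rule. They did not share 1 course in the controls. OS06G0119700 was called lower at 10 min and 2 h only, with q = 0.05 at 20 min and q = 0.55 at 1 h in the authors' deposited table.

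OS06G0119800, the ID of the run that reached 5 FPKM without being a member, missed the rule at the early times. It stood at 4.98 against 3.39 FPKM at 10 min (ratio 0.734) and at 4.50 against 1.53 FPKM at 1 h (ratio 0.460). In the authors' deposited table it was called lower at 1 h and 2 h. OS06G0119100 was the only member of the run called lower at 10 h in the authors' deposited table, at 15.1 FPKM in controls and 7.47 FPKM in heated shoots. Whether the genes of this run overlap, or resemble each other enough to share reads, was not tested.

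**Figure D5:**
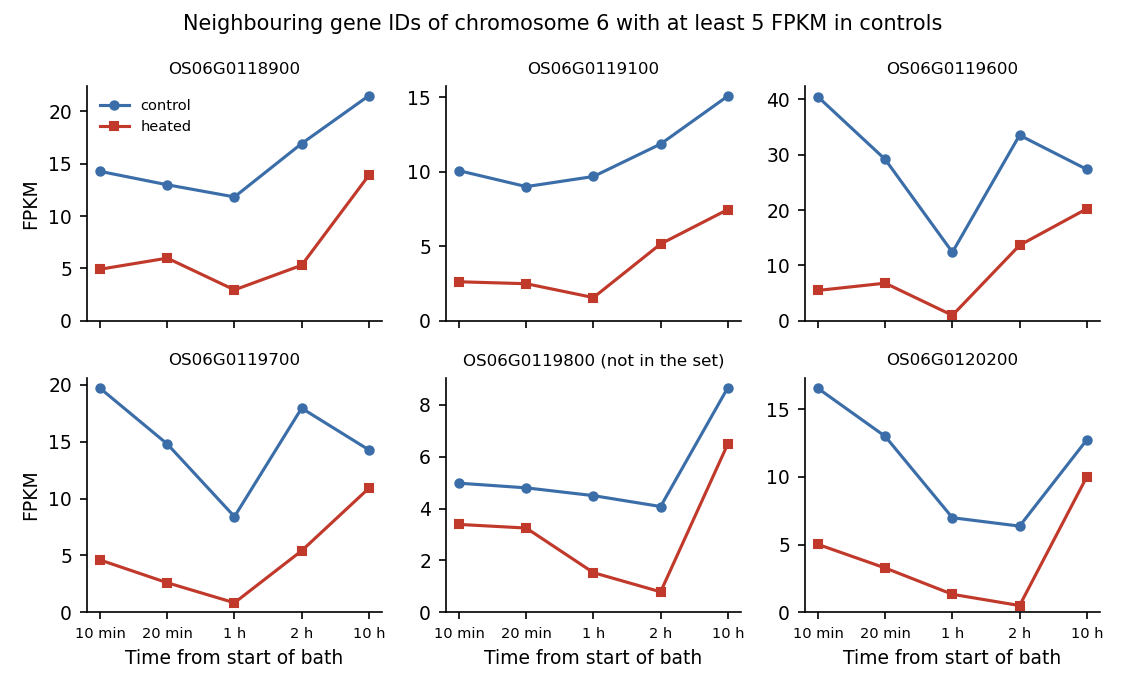
FPKM in control (blue) and heated (red) shoots at the 5 times for the 6 IDs of at least 5 FPKM in controls between OS06G0118900 and OS06G0120200 on chromosome 6. In each panel the heated line lies below the control line at every time, and OS06G0119800, with 3.39 against 4.98 FPKM at 10 min, is the ID outside the set.

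Other close pairs differed in how alike they were. OS02G0308400 and OS02G0308800 are successive IDs in the table. The first stood at 106, 110, 23.7, 77.7 and 111 FPKM in controls and at 35.2, 42.8, 4.93, 16.4 and 89.2 FPKM in heated shoots. The second stood at 180, 148, 181, 209 and 225 FPKM in controls and at 51.1, 58.3, 12, 53.6 and 250 FPKM in heated shoots. Both were lowest after heat at 1 h, while the controls dipped at that time in the first and not in the second. OS01G0823100 and OS01G0823150, also successive, moved in parallel in both arms, with 35.1, 14.9, 38.5, 76.3 and 64.5 FPKM and 18.6, 7.33, 15.4, 34.6 and 26.7 FPKM in controls. In heated shoots they stood at 8.79, 3.02, 5.11, 33.3 and 66.9 FPKM and at 4.09, 1.21, 2.02, 17.8 and 31.4 FPKM. Whether these 2 IDs share reads was not tested.

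More than 1 row of the table was held by 26 members, or 21.8%, against 35.9% of all 14785 IDs. Their 39 other rows were low, with a median of 1.98% of the level of the main row and a highest share of 26.0%. Their median level was 0.493 FPKM, and 5 of the 39 belonged to 1 ID, OS06G0304600. At 10 min 31 of the 39 were higher in heated than in control shoots and 8 were lower. The split was 23 against 16 at 20 min, 20 against 18 at 1 h, 16 against 22 at 2 h and 11 against 17 at 10 h. Over the 7457 such rows of all IDs, 70.4% were higher in heated shoots at 10 min and 57.4% at 2 h. Calls of higher in the authors' deposited table were held by 2 of the 39 at 10 min, 3 at 20 min and 1 at 1 h. Over the 7457 rows the authors' deposited table has 4.87%, 5.26% and 4.96% called higher at these times, so the few calls among the 39 are not read as a result about the members. With all rows of an ID summed, 113 of the 119 members still met the rule.

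Falls limited to the earlier or the later times were set beside the sustained ones. A ratio of at most 0.6 at both 1 h and 2 h but not at 10 or 20 min was met by 571 IDs, and at both 10 and 20 min but not at 1 or 2 h by 176. At 10 h the authors' deposited table called 7.88% of the later falls lower and 3.33% higher. Of the early falls it called 1.14% lower and 7.95% higher at 10 h in the authors' deposited table. The sustained set, with 6.72% and 2.52%, lay beside the later falls in these shares. The median log2 ratio at 10 h was -0.17 in the later falls, 0.08 in the early ones and -0.11 in the sustained set. The differences between the 3 sets were not tested.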

How the data were processed

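RNA of rice shoots was sequenced from 20 libraries, 10 groups of 2. The submitters' processing notes name cutadapt, TopHat2, Cufflinks and the build IRGSP-1.0. The deposited table holds a single FPKM value for each group, so replicates are already pooled, and the planned limma model over libraries was not run. The q-values, deposited by the authors with 2 decimals, come from a test not given in the sources used here. Per the file headers the deposited table also holds a log2 fold change. Among the members it departed by at most 0.0088 from the log2 ratio of the deposited FPKM values in 560 checked cases. These cases do not cover every value of the members. A ratio against 0 has no usable log2 value, so this other column was not taken as the measure. No column of other samples was present.

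Ratios used a pseudocount of 1 FPKM. All 48683 rows were read with Python 3.11.15, numpy 2.4.6 and pandas 2.3.3, and figures drawn with matplotlib 3.10.9. The code of the selection was run on simulated data, which checks the code and not the set. With 2 libraries per group, whose spread is not shown, q-values cover those samples only. Members and lists were chosen with earlier results of these data known. The reference gene table (ASM3414082v1) matched 0 IDs, so 18 lists by product description and 11 promoter motifs were not used, and no coordinates or sequences are given. Single genes were to be the 8 deepest, 6 most abundant, 4 lowest and 4 highest at 10 h and 3 on either side of the limit, with unannotated IDs held to 2 each way at 10 h. Those 4 IDs are OS05G0409500, OS08G0231400, OS01G0922700 and OS12G0274750; the others were chosen after their values were seen. The alternatives were other thresholds, filters, scaling and row sums.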

Additional observations from a re-analysis of the deposited data

Results flagged for a closer look

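In 3 members the contrast of heated against control turned over between the early times and 10 h, by calls in both directions in the authors' deposited table. OS02G0240300 went from a log2 ratio of -2.04 at 1 h to 0.98 at 10 h. OS10G0508700 went from -2.84 to 1.05 and OS12G0583300 from -1.96 to 0.93 between the same times. The difference between the times was not tested, since no value per library was at hand, and the early falls had chosen the genes.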

How the results depend on the processing

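No paired analysis was possible because the table gives 1 column per group, and for the same reason no replicate could be left out. The size of the set followed its limits. A ratio of at most 0.5 gave 53 members, 5 of them called lower at 10 h and 35 called lower at all 4 earlier times in the authors' deposited table. A ratio of at most 0.7 gave 301 members and 22 calls at 10 h, and a control mean of at least 20 FPKM gave 76 members and 5 calls at 10 h in the authors' deposited table. A q threshold of 0.01 left 38 members with all 4 calls in the authors' deposited table. The pseudocount of 0.1 (152 members), the control mean of 1 FPKM (144) and rescaling by the median ratio over 10891 genes (118, of which 115 were shared) kept every count within 1.5-fold, and rescaling moved the median of all IDs by at most 0.07. The median log2 ratio at 10 h stayed between -0.17 and -0.05 in all settings run. Of the IDs named at 10 h, OS05G0409500 and OS08G0231400 went to -2.75 and -2.27 with a pseudocount of 0.1. Settings added after the data were seen, with only IDs ending in 00, without the 19 members never called and with 1 ID per record, each gave 8 calls lower at 10 h in the authors' deposited table. Without counts, depth sets no limit that can be stated here.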
